A study of Homo sapiens with 6 samples.

Results

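The time course of the spiky clone of HCA-7 cells was described from its own arrays, 1 at day 5, 1 at day 10 and 1 at day 15, which are 3 of the 6 arrays of the series. Membership was set by the labels alone: the arrays of the spiky clone sc1, without those of the cystic clone cc3. HCA-7, an established line from a human colorectal cancer, forms smooth hollow (cystic) or protruding (spiky) colonies in type 1 collagen. Each colony type was isolated and cultured again in collagen, so the spiky course is that of 1 clone, with no treatment and no genetic change named in the labels. Total RNA of the collagen layer that held the cells was labelled as biotin-cRNA and hybridised to Affymetrix U133 Plus 2.0 arrays, and all levels here are deposited log2 values. The labels do not say whether the 3 days came from 1 culture or from separate ones.

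Cells in a growing colony meet changing supplies of oxygen and nutrients. In low oxygen the hypoxia-inducible factors (HIF) are stabilised and bind short DNA sites near genes for glucose use, blood vessel growth and mitophagy. Proliferation depends on E2F factors, which switch on DNA replication genes before S phase, and on the MuvB complex, which acts through CHR elements in genes for mitosis. MYC drives ribosome production, partly through E-box sites. The aryl hydrocarbon receptor (AHR) is a ligand-activated factor whose best known target is CYP1A1.

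Promoters of 6 genes are shown because these genes changed at least 2-fold in the spiky clone and hold a motif of the factor their list is known for. The sequences are RefSeq's (assembly GRCh38.p14), run from 250 bases before to 50 bases after the transcription start, and are written 5′ to 3′ on the gene's strand. Capitals mark each match to the motif searched. For DDIT4 (chr10:72273674-72273973, plus strand) and ALDOC (chr17:28576846-28577145, minus strand) the motif is the HIF core ACGTG on either strand; the first site of ALDOC, CACGTG, matches on both strands and is also an E-box. DTL (chr1:212035498-212035797, plus strand) and CDC6 (chr17:40287629-40287928, plus strand) carry the E2F motif TTTGGCGC. KIF23 (chr15:69414099-69414398, plus strand) carries the CHR motif TTTGAA, and SRM (chr1:11059969-11060268, minus strand) the E-box CACGTG; these last promoters and the E-box were added after the values were seen.
DDIT4: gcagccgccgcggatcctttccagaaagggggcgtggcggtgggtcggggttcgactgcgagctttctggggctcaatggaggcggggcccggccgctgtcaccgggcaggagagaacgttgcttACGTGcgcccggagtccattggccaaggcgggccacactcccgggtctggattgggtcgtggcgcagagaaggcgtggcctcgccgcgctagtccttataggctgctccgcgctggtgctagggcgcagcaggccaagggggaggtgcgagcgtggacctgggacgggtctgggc
ALDOC: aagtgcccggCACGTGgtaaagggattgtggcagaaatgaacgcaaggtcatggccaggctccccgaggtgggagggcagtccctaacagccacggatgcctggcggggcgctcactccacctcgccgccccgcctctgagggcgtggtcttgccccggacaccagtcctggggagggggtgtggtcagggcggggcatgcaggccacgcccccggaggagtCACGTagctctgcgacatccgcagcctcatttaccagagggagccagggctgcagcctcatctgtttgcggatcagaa
DTL: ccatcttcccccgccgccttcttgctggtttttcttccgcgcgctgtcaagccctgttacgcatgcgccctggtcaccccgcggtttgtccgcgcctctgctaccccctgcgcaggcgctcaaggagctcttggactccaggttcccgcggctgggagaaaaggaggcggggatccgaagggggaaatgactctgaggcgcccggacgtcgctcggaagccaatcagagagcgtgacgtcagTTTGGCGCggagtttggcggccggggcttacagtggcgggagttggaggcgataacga
CDC6: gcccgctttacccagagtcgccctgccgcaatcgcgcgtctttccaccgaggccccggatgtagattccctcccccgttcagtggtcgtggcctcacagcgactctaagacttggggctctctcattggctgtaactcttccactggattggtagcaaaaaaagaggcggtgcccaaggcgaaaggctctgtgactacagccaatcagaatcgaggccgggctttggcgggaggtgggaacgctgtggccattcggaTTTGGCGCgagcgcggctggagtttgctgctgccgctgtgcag
KIF23: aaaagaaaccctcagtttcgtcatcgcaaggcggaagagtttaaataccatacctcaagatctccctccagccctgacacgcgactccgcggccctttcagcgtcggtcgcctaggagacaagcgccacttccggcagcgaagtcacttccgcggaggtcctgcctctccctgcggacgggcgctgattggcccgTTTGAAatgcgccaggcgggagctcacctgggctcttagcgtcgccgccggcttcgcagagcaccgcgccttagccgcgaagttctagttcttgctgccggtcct
SRM: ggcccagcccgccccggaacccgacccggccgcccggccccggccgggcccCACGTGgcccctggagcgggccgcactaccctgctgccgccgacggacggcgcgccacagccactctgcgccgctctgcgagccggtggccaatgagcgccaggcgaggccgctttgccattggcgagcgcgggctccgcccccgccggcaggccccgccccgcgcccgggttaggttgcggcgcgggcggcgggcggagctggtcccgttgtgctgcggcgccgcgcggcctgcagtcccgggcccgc

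Most of the change in the spiky clone came after day 10. Among 12198 genes with a mean log2 level of at least 5 over the 3 arrays, 675 (5.53%) were at least 2-fold higher and 855 (7.01%) at least 2-fold lower at day 15 than at day 5. Between day 5 and day 10 only 45 genes (0.369%) were 2-fold higher and 103 (0.844%) 2-fold lower. Between day 10 and day 15 the counts were 659 higher (5.4%) and 360 lower (2.95%). The standard deviation of the log2 change over all tested genes was 0.33 at the early step and 0.60 at the late step. With 1 array per day no difference between days has a replicate check, so "rose" and "fell" below mean a difference of at least 2-fold between single arrays, with no p-value. As a yardstick within an array, the net change of a gene's other probe sets differed from that of the chosen one by a median of 0.33 on the log2 scale (11535 probe sets of 6222 genes). At the limit for higher genes HLA-DQB1 lay just inside (net log2 change 1.001) and AJUBA just outside (0.9999). For lower genes RNF227 lay just inside and DMKN just outside (-0.9996).

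The median log2 change over all tested genes was -0.13 at the early step, 0.01 at the late step and -0.12 net. Centring each array on its median moved the late value to -0.11, and the genes that were higher then made up 46.6% of those changed at the late step, against 64.7% as deposited and 54.9% after quantile normalization. At the early step the higher genes were 30.4% of those changed as deposited, 38.8% after centring, 46.0% after quantile normalization and 44.9% with no filter on dim genes. Spike-in controls also moved. All 12 poly-A spike-in probe sets were lower at day 10 than at day 5, by a median log2 change of -0.76 (-1.48 to -0.52), and all 12 were higher at day 15 than at day 10, by a median of 1.09 (0.56 to 1.61). The 9 hybridisation controls changed by a median of 0.03 and then 0.36. The 3′ minus 5′ difference of the ACTB control probe sets, a common gauge of RNA integrity, was 2.73, 2.74 and 3.10 at day 5, 10 and 15, and that of GAPDH 0.60, 0.63 and 0.49. Whether these shifts have a part in the counts above was not tested.

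**Figure D1:**
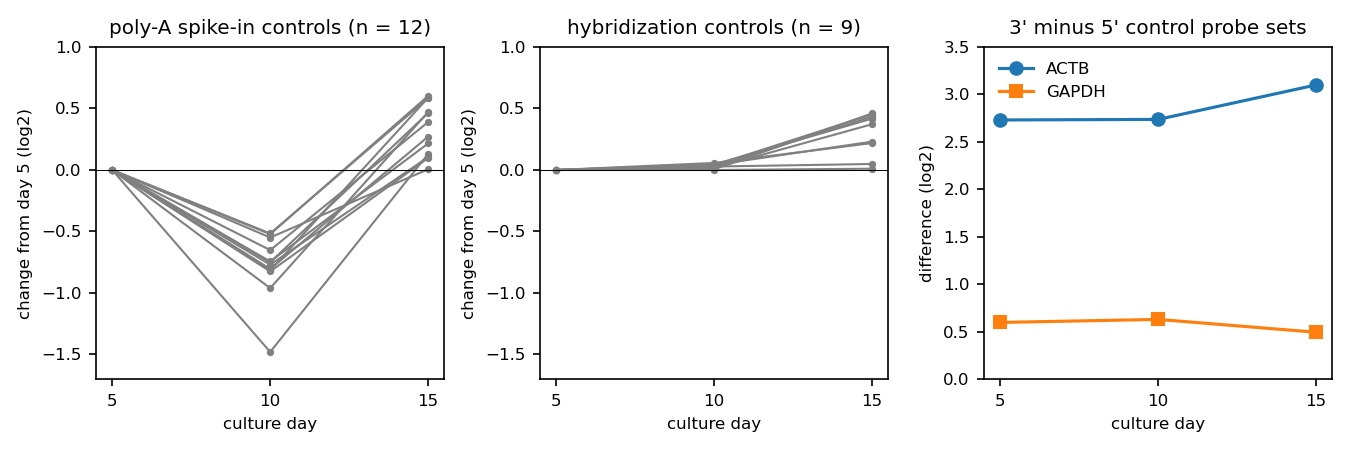
Control probe sets on the 3 spiky arrays. Left and middle: log2 change from day 5 (y) against culture day (x), 1 line per probe set, for 12 poly-A spike-in and 9 hybridisation controls; right: 3′ minus 5′ log2 difference for ACTB and GAPDH. All 12 poly-A lines dip at day 10 and climb at day 15, and the ACTB difference reaches 3.10 at day 15.

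General epithelial markers were bright, while markers of colorectal epithelium were divided. EPCAM, an epithelial adhesion molecule, read 11.80, 11.79 and 11.67 at day 5, 10 and 15, and KRT18 12.72, 12.33 and 12.20. Of 12 markers of colorectal epithelium 8 reached the level required, among them VIL1 (7.06, 6.49 and 7.20) and CLDN3 (6.60, 6.08 and 6.60). KRT20, CEACAM5, LGALS4 and CDX2 did not. Of 12 fibroblast markers 10 lay under log2 5 on every array, and the mean level over the list was 3.93, 4.02 and 4.01. Among leukocyte markers 7 of the 10 on the array were that dim on every array, and among endothelial markers 6 of 10. COL1A1, the collagen chain counted as a fibroblast marker, read 6.41, 6.40 and 7.54, and 2 of its 3 other bright probe sets shared that direction.

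The 1530 genes with a net 2-fold change were sorted by how much of it was reached by day 10. A change was called steady where day 10 had covered 0.25 to 0.75 of it, late where it had covered less (down to -0.25), early where it had covered more (or passed it by up to 0.25), and overshoot outside those bounds. Steady genes numbered 685 (44.8% of the 1530) and late genes 719 (47.0%). Early genes numbered 56 (3.66%), and 70 (4.58%) overshot, most of them by dipping at day 10 before a rise. By direction, 212 genes rose steadily (1.74% of all tested) and 473 fell steadily (3.88%), 380 rose late (3.12%) and 339 fell late (2.78%). Only 20 rose early (0.164%) and 36 fell early (0.295%). Overshoots were 63 rises (0.516%) and 7 falls (0.0574%). In addition 4 genes peaked at day 10 (0.0328%) and 16 dipped there (0.131%), with both steps at least 2-fold and little net change. By the plain rule of day 10 lying between the other days, 1257 of the 1530 genes qualified, 450 rising and 807 falling.

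**Figure D2:**
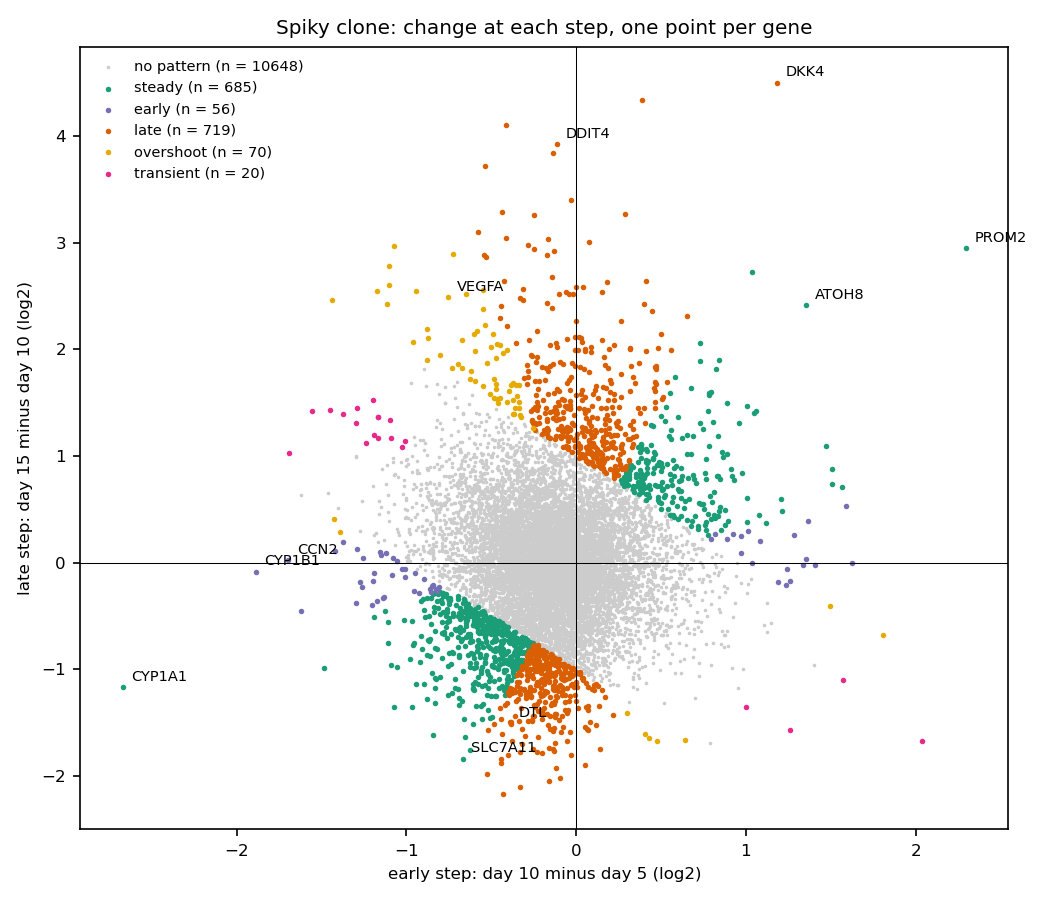
Log2 change at the early step (day 10 minus day 5, x) against the late step (day 15 minus day 10, y), 1 point per tested gene of the spiky clone, coloured by pattern. The cloud spreads further along y than along x (SD 0.60 against 0.33), and late genes lie above and below a narrow band around x = 0.

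Steady rises reached at least 13.5-fold in 3 genes. PROM2, a prominin of plasma membrane protrusions, read 4.09 at day 5, 6.39 at day 10 and 9.34 at day 15, at least 20.2-fold net. Both its other bright probe sets moved the same way, but the naming rule left out genes with an opposing one. For genes named by that rule such agreement was fixed in advance, here and below. Of 728 genes with a net 2-fold change and other bright probe sets, 582 had all of them in the same direction. ATOH8, a basic helix-loop-helix factor and known target of BMP signalling, read 6.07, 7.43 and 9.84, a 13.6-fold difference. SLC29A4, a monoamine transporter, read 5.54, 6.57 and 9.29. All 3 gained more at the late step than at the early one. The sizes rest on the brightest probe set: over all probe sets of the gene the net log2 change was 1.38 in place of 5.24 for PROM2, 1.21 in place of 3.77 for ATOH8 and 1.88 in place of 3.76 for SLC29A4. CLDN2, the pore-forming tight junction claudin, climbed from 5.25 through 6.07 to 7.89 (6.22-fold). DHRS3, which reduces retinaldehyde, was the exception among the 8 leading genes, with the larger gain at the early step (7.11, 8.58 and 9.68). IRF9, the DNA-binding part of the interferon-stimulated complex ISGF3, read 5.55, 6.61 and 8.03. PRR15L and TLCD2 completed the 8, at 6.90-fold and 6.70-fold.

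A steady fall was deepest in CYP1A1, a cytochrome P450 and AHR target. CYP1A1 read 8.87 at day 5, 6.20 at day 10 and 5.03 at day 15, 14.3-fold lower net, and most of that was lost by day 10. SLC7A11, the cystine importer, read 10.26, 9.59 and 7.76 (5.68-fold lower), and GCLM, a subunit of the rate-limiting enzyme of glutathione synthesis, read 8.97, 8.14 and 6.83 (4.42-fold lower). These genes serve the same route, from cystine to glutathione. For each of them 2 of 2 other bright probe sets moved the same way, as the naming rule required. GPAT3, an acyltransferase of triglyceride synthesis, fell from 8.36 through 7.73 to 5.97. PIGW, an enzyme of GPI-anchor synthesis, went from 8.21 through 7.56 to 5.92. MB21D2, ZNF804A and DDIAS were 5.54-fold, at least 4.40-fold and 4.36-fold lower.

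Among the named genes the highest net fold was a late rise, that of DKK4. The steady changes of PROM2 (at least 20.2-fold) and CYP1A1 (14.3-fold) came next. DKK4, a secreted WNT inhibitor that is itself a WNT target, read 4.45, 5.63 and 10.13, at least 35.0-fold higher at day 15 than at day 5. DDIT4, an mTOR inhibitor induced by low oxygen and stress, read 9.06, 8.95 and 12.88, so it had not moved by day 10 and was 15.2-fold higher 1 step later. MB, the oxygen-binding protein myoglobin, was dim until day 10 (3.99 and 4.38) and then read 8.72, so it passed the filter only through day 15. ASS1, the argininosuccinate synthase of arginine production, read 7.79, 7.37 and 11.47. SESN3, a sestrin that restrains mTORC1, read 4.91, 5.19 and 8.46. Days 5 and 10 thus lay close together for each of these but DKK4, with day 15 standing apart. TGM2, a transglutaminase that crosslinks matrix proteins, read 5.37, 4.83 and 8.55 from a probe set that can detect related genes. PADI2 and LMNTD2-AS1 were 8.47-fold and at least 9.53-fold higher. LMNTD2-AS1 (4.56, 4.42 and 8.25) also passed the filter only through day 15.

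Late falls were smaller in fold. AVEN, an inhibitor of apoptosis, read 8.20, 7.68 and 5.70 (5.67-fold lower). EXO1, an exonuclease of mismatch repair and recombination, read 9.16, 8.76 and 6.96. URB2, a ribosome biogenesis factor, read 7.41, 7.25 and 5.20. AKAP12, a scaffold for protein kinase A, stayed at 10.95 and 10.86 before 8.84. Its 3 other bright probe sets moved the same way, as the naming rule required. LETM2, SLC43A3, PRDM13 and ACTL8 were 5.40-fold, 4.86-fold, at least 5.61-fold and at least 4.77-fold lower.

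Few genes made most of their change by day 10: 20 rises, with a median early-step log2 change of 1.21, and 36 falls, with a median of -1.12. CYP1B1, a further P450 under AHR control, read 7.84, 5.95 and 5.87 (3.91-fold lower), with 2 of 2 other probe sets the same way, as the naming rule required. CCN2, a matricellular protein and YAP target, read 10.19, 8.49 and 8.51. IL32, a cytokine, read 10.58, 9.28 and 8.90. In these the values of day 10 and 15 lay close together, well under day 5. GSTM1 (at least 3.92-fold, from a probe set that can detect related genes), MBNL1-AS1 (3.03-fold) and GPATCH3 (2.89-fold) completed the early falls. The early rises named by the rule, which leaves out genes with opposing probe sets, reached 2.61-fold: RPS16P5, a ribosomal protein pseudogene, CDC42BPG, a kinase downstream of CDC42 (7.12, 8.36 and 8.31), TSPEAR, TTC28, CLDN20 and RSKR. For TTC28 the direction depends on the probe sets, since the median over all of them gave a net log2 change of -0.16 in place of 1.22.

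**Figure D3:**
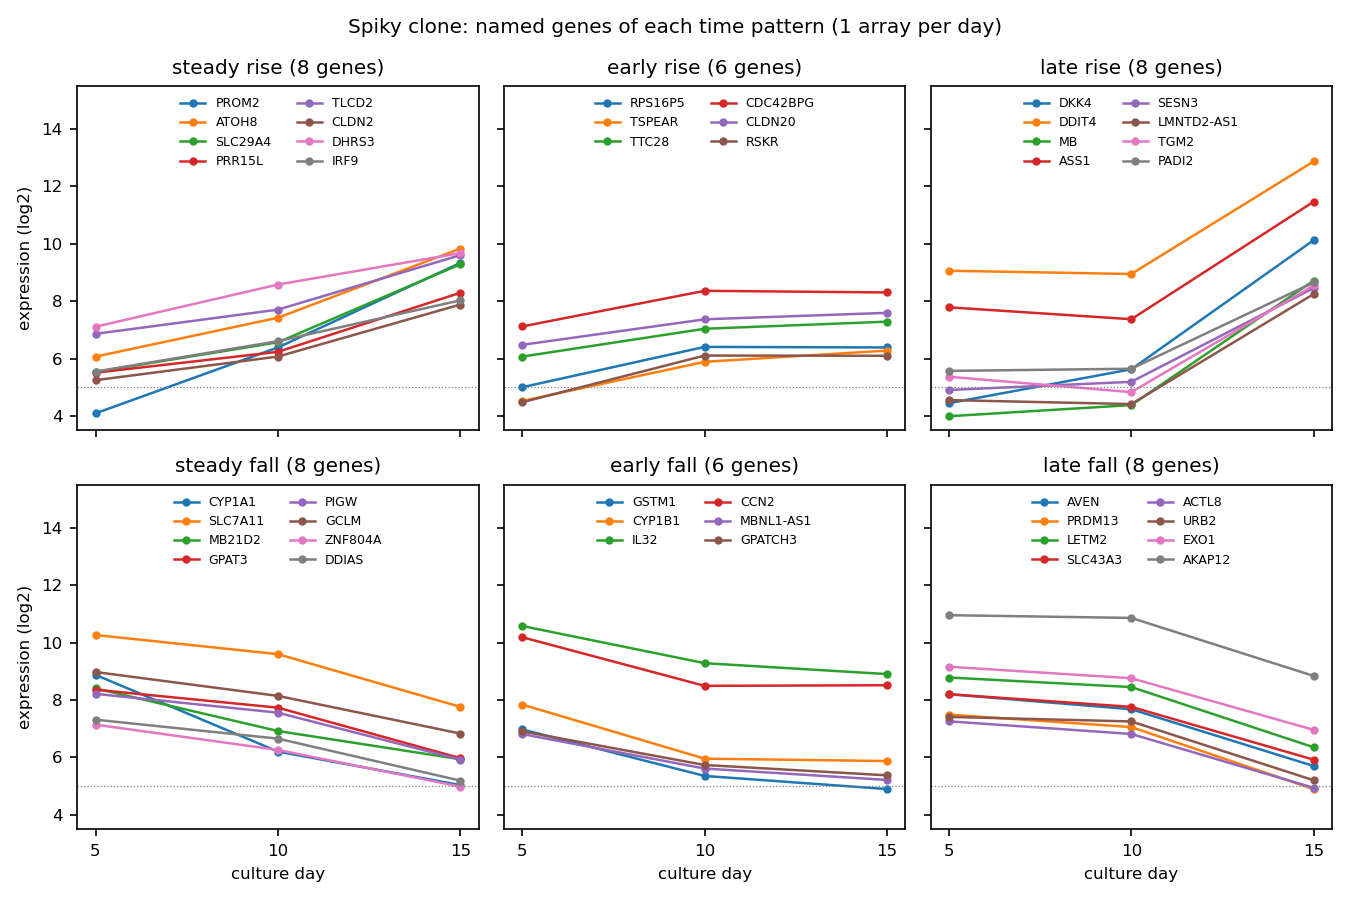
Log2 level (y) against culture day (x) on the 3 spiky arrays for the leading genes of 6 patterns, 1 line per gene; the dotted line marks log2 5, the level required. Late genes change less to day 10 than after it, with DKK4 already 1.18 (log2) higher at day 10 and DDIT4 reaching 12.88 at day 15. The early falls CCN2 and CYP1B1 are level from day 10.

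Of the 103 genes 2-fold lower at day 10, 37 were still 2-fold lower than day 5 at day 15 and 78 read higher at day 15 than at day 10. Of the 45 higher ones 33 were still 2-fold higher and 22 read lower at day 15 than at day 10. Both counts start from the single day 10 array on which the genes were chosen, and are given as a description only. The 16 dips included RIMKLA, a ligase that makes N-acetylaspartylglutamate (6.33, 5.13 and 6.66), CDA, cytidine deaminase (6.37, 5.20 and 6.56), and TENT5B, a poly(A) polymerase (7.63, 6.47 and 7.83). The peaks named by the rule were both noncoding RNAs, PPP1R26-AS1 (4.98, 6.24 and 4.67) and LINC03068 (4.63, 6.21 and 5.11), each dim on at least 1 array. A dip at day 10 is also the course of all 12 poly-A spike-in probe sets, whose part in these genes was not tested.

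Of 22 tested hypoxia-inducible genes outside glycolysis, 14 (63.6%) were 2-fold higher at day 15 than at day 5, against 5.53% of all genes tested, and 1 (4.55%) was lower, against 7.01%. These 2 shares of all genes stand behind every list count of net rises and falls given here. The list had a median log2 change of -0.10 at the early step, 1.54 at the late step and 1.37 net. The same net median over all tested genes was -0.12. Of the 14, 11 followed the late pattern and 3 dipped first, among them VEGFA, the angiogenic growth factor (7.13, 6.38 and 8.87). EGLN3, the oxygen-sensing prolyl hydroxylase induced by HIF, read 4.59, 4.56 and 7.95 (at least 7.75-fold). It passed the filter on mean level only through day 15, as did some genes of other lists. BNIP3L, a mitophagy receptor, read 8.61, 8.56 and 11.08, and NDRG1, a stress-response gene, 9.69, 9.16 and 12.02. ANGPTL4, an inhibitor of lipoprotein lipase, read 5.98, 5.55 and 8.19. STC2, a secreted glycoprotein that also answers to the amino acid response, went the other way, at 8.37, 7.24 and 6.90. HILPDA, ERO1A, P4HA2 and CA12 differed from day 5 by -0.17 to 0.05 at day 15, so the list did not move as 1 block. CA9 was not analysed here.

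Among 22 genes of glucose uptake and glycolysis 5 (22.7%, against 5.53% of all genes) were higher and 0 lower, with a net median of 0.33. They were ALDOC, the brain-type aldolase (8.54, 8.30 and 11.23), PFKFB4 and PDK1, which set the flow into glycolysis and away from the mitochondria (5.81, 5.57 and 7.75; 8.13, 7.73 and 9.94), SLC2A1, the glucose transporter GLUT1 (8.69, 8.22 and 9.84), and ENO2. None of the other 17 passed 2-fold net, from GAPDH at 12.89, 12.71 and 12.82 and LDHA at 12.80, 12.70 and 12.99 to PFKFB3 at 11.01, 10.81 and 11.91. The late step alone was a rise of at least 2-fold for 7 of the 22, against 5.4% of all genes, ALDOA among them (11.54, 11.23 and 12.28). In the RefSeq promoters, ACGTG was found on either strand in 10 of 18 hypoxia genes (55.6%) and 9 of 22 glycolysis genes (40.9%), against 26.9% of 9924 tested genes with a promoter and 21.6% of all 27305 promoters. The share in all late-rising genes was 23.5%, lower than in late-falling (29.7%) and steadily falling genes (30.8%). In the ribosome biogenesis list, which fell, it was 73.3%, so ACGTG was not particular to rising genes. These matches, DDIT4 and ALDOC among them, describe letters and not bound sites. Oxidative phosphorylation genes had a net median of -0.13, and 1 of 21, CYC1 of complex III, was 2-fold lower (9.83, 9.76 and 8.73).

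**Figure D4:**
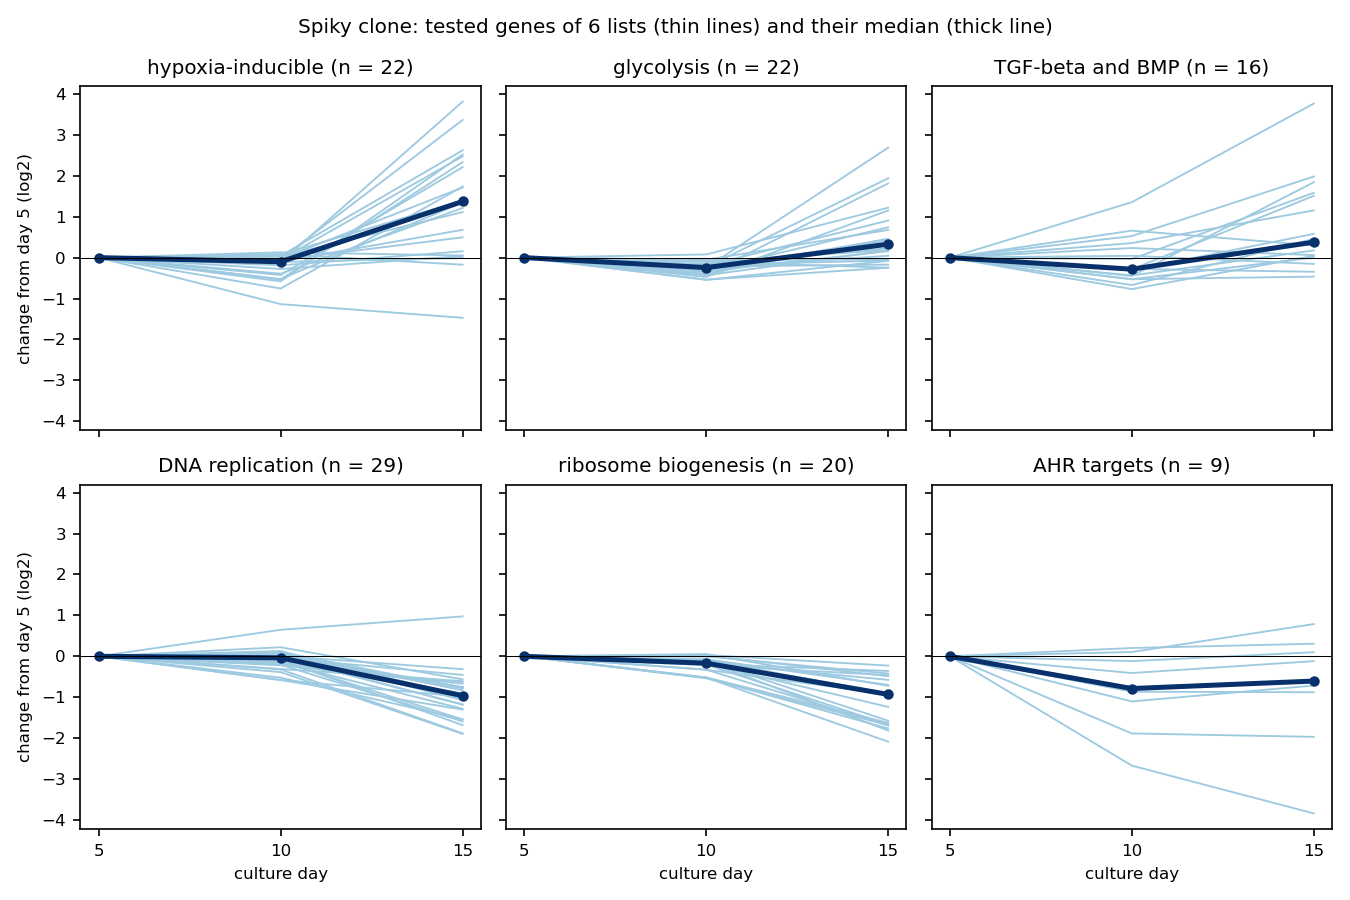
Log2 change from day 5 (y) against culture day (x) for the tested genes of 6 lists on the spiky arrays, thin lines for genes and a thick line for their median. The hypoxia-inducible median is flat to day 10 and reaches 1.37 at day 15, DNA replication and ribosome biogenesis end at -0.96 and -0.93, and the AHR median drops at day 10.

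Of 29 DNA replication and G1/S genes 12 (41.4%, against 7.01% of all genes) were 2-fold lower at day 15 than at day 5 and 0 were higher, with medians of -0.04, -0.88 and -0.96 for the early step, the late step and net. DTL, which directs the degradation of the licensing factor CDT1, read 8.33, 7.95 and 6.44 (3.72-fold lower). MCM5, a subunit of the replicative helicase, read 7.86, 7.54 and 5.97, and CDC6, which loads that helicase, 9.84, 9.64 and 8.25. MCM2, another helicase subunit, was 1 of 2 that fell steadily (10.26, 9.68 and 8.96), against 10 late. GINS4 alone had a positive change (6.43, 7.08 and 7.41). The E2F letters (TTTGGCGC, TTTCCCGC, TTTGCCGC or TTTCGCGC, either strand) stood in 17 of 25 replication promoters (68.0%), in 9.22% of the late-falling genes with a promoter, in 2.14% of the late-rising ones and in 5.30% of all tested ones.

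The mitosis list changed less. Its medians were 0.01, -0.61 and -0.62, 29 of 30 genes were lower at day 15 than at day 5, and 2 passed 2-fold, a share (6.67%) near the 7.01% of all genes: KIF23, a kinesin of cytokinesis (7.68, 7.44 and 6.52), and CCNA2, cyclin A2 (10.29, 10.23 and 9.22). MKI67, the proliferation marker Ki-67, read 10.11, 10.17 and 9.14, just under the limit net. CCNB1 at 10.75, 10.77 and 9.83 and TOP2A at 11.11, 11.41 and 11.23 were level or higher at day 10. TTTGAA was found in 16 of 24 mitosis promoters (66.7%), against 9.78% of tested genes with a promoter and 15.4% of the late-falling ones. The cell cycle inhibitor CDKN1A read 9.39, 9.08 and 11.54, a 4.43-fold rise.

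All 20 ribosome biogenesis and MYC target genes were lower at day 15 than at day 5, 9 of them (45.0%, against 7.01% of all genes) by 2-fold, with medians of -0.17, -0.82 and -0.93. SRM, spermidine synthase, read 8.96, 8.44 and 6.87, and UTP20, of the small subunit processome, 9.56, 9.43 and 7.74. NOP16 (11.02, 10.69 and 9.33), RRS1 (10.79, 10.59 and 9.12) and RRP12 (8.48, 7.95 and 6.71) showed that course too. NPM1, the abundant nucleolar protein, changed least, at 13.58, 13.62 and 13.36. MYC itself read 11.19, 11.04 and 10.62, short of 2-fold. The E-box CACGTG stood in 8 of 15 of these promoters (53.3%), against 10.3% of tested genes with a promoter, and ACGTG, which lies inside it, in 11 of 15 (73.3%).

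AHR targets had the lowest early median of the lists plotted. Of 9 tested genes 3 were 2-fold lower at day 10 than at day 5, against 0.844% of all genes, and the medians were -0.79 at the early step and 0.18 at the late step. CYP1A1 and CYP1B1 are given above. NQO1, a quinone reductase shared with the NRF2 list, read 10.80, 9.70 and 10.09. TIPARP, an AHR-induced ADP-ribosyltransferase that feeds back on the receptor, read 8.62, 7.75 and 7.74, and AHRR, the receptor's repressor, 7.07, 6.28 and 6.46, both lower by less than 2-fold. The receptor gene AHR read 8.30, 8.41 and 9.09. GCGTG was found in 6 of 8 promoters of the list (75.0%), and in 50.2% of tested genes with a promoter.

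YAP targets also lost level early. The median of 19 genes was -0.48 at the early step, 0.10 at the late step and -0.10 net. At the early step 3 genes were 2-fold lower (CCN2, EDN1 and CCN1), against 0.844% of all genes. Net 4 were lower (21.1%, against 7.01% of all genes) and 0 higher. EDN1, the peptide endothelin-1, read 7.44, 6.31 and 5.86, and F3, tissue factor, 11.31, 10.53 and 10.25. CCN1, a matricellular partner of CCN2, read 8.54, 7.37 and 7.56, while FJX1 fell steadily, with the larger part after day 10 (8.96, 8.48 and 7.38). AJUBA, a LIM protein that restrains the Hippo kinases, went up to just under the limit (8.33, 8.65 and 9.33). The median over all tested genes was -0.13 at the early step.

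In the serine synthesis and amino acid response list 4 of 23 fell (17.4%, against 7.01% of all genes) and 0 rose, with a net median of -0.56: SLC7A11 and STC2 as above, PSAT1, of serine synthesis (9.39, 9.27 and 7.85), and SLC7A5, the large neutral amino acid transporter (7.68, 7.14 and 6.21). Of 20 NRF2 targets 15 were lower at day 15 than at day 5, with a net median of -0.59; 2 fell (10.0%, against 7.01% of all genes) and 4 rose (20.0%, against 5.53%). Those were AKR1C1, AKR1C2 and AKR1C3, aldo-keto reductases of near-identical sequence whose probe sets may share signal, and the exporter ABCC2. HMOX1, heme oxygenase, read 7.26, 6.57 and 6.53, and TXNRD1, thioredoxin reductase, 11.70, 11.27 and 10.81. Unfolded protein response chaperones had 0 of 19 genes past 2-fold and a net median of -0.21. The metallothionein list had 0 of 9 past 2-fold, with a net median of 0.42.

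Sterol genes rose in part, all at the late step. Of 20 tested genes 4 rose (20.0%, against 5.53% of all genes) and 0 fell: INSIG1, the sterol-regulated brake on SREBP (level to day 10, then 10.58; 2.97-fold), STARD4, a cholesterol carrier (7.41, 7.48 and 8.79), MSMO1 (10.05, 9.94 and 11.34) and SCD, the stearoyl-CoA desaturase (9.99, 10.21 and 11.34). The remainder of the pathway did not pass, with SQLE at 8.82, 8.65 and 9.07 and FASN at 6.72, 6.14 and 6.85. Among 22 lysosome and autophagy genes NPC2 (10.46, 10.88 and 11.81) and GRN (from a probe set that can detect related genes) rose. GLA fell (10.14, 10.01 and 8.85), and the net median was -0.02.

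**Figure D5:**
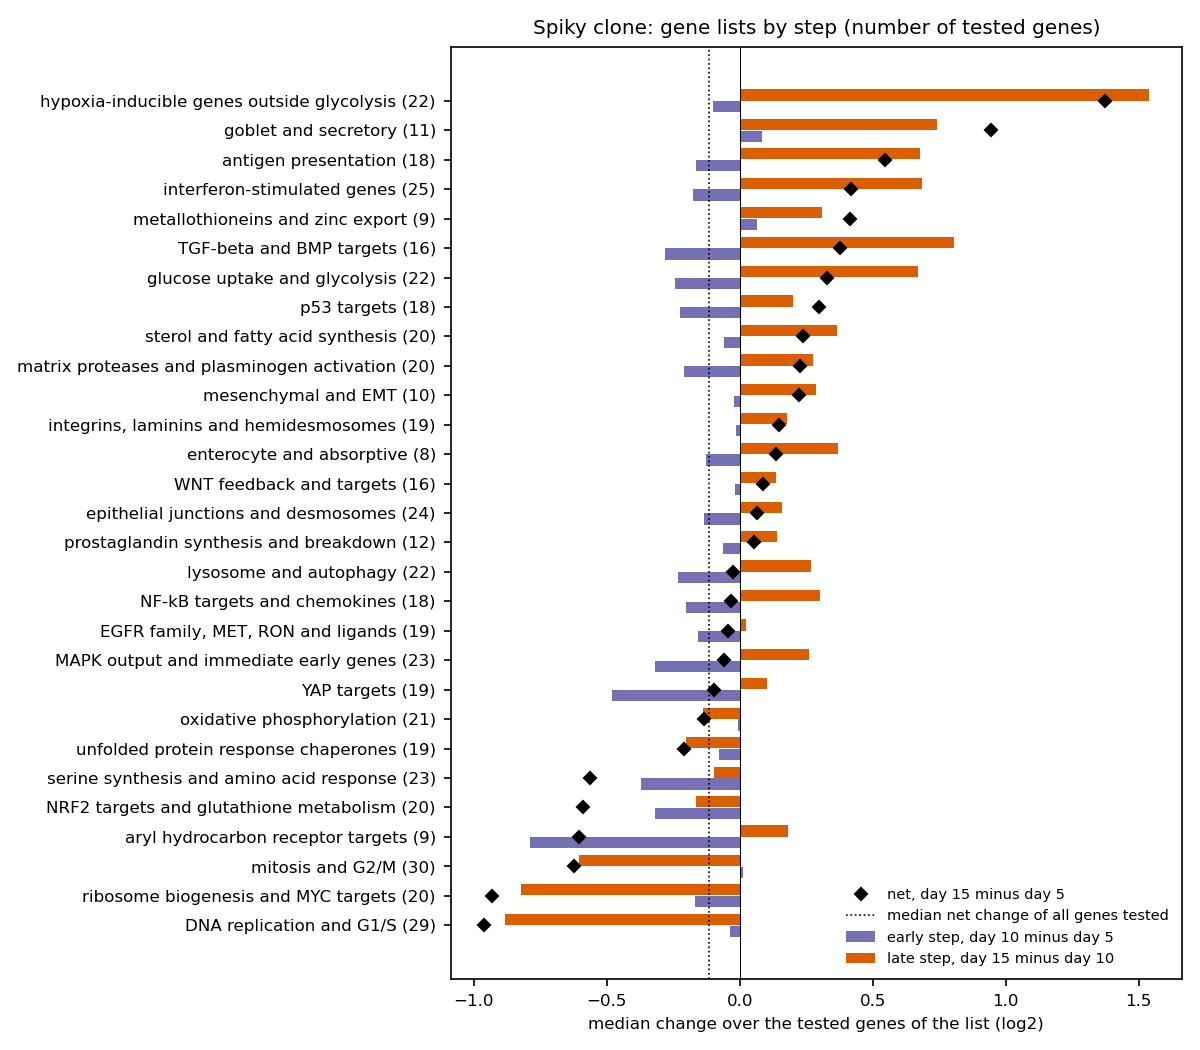
Median log2 change (x) of the tested genes of each list (y, number of genes in brackets) on the spiky arrays, bars for the early and late step from 0, diamonds for the net change; the dotted line is the net median of all genes tested, -0.12. Late bars exceed early ones at both ends, from 1.54 in hypoxia-inducible genes to -0.88 in DNA replication, while AHR and YAP targets have the longest early bars.

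Of 16 TGF-beta and BMP targets 6 rose (37.5%, against 5.53% of all genes) and 0 fell, with medians of -0.28, 0.81 and 0.38. Beside ATOH8 they were the inhibitory SMAD6 (7.07, 7.60 and 9.05), ID1 (7.26, 7.23 and 8.85) and ID2 (8.18, 7.90 and 9.69), which block basic helix-loop-helix factors, LTBP2 (5.63, 5.18 and 7.48) and SKIL. The ligand BMP4 read 10.13, 9.60 and 9.66. In the WNT list 3 of 16 tested genes rose and 0 fell, with DKK4 far above the others tested. SP5, a further WNT target, read 5.35, 4.72 and 6.44, ETS2 8.14, 8.53 and 9.19 and AXIN2, the general feedback gene, 7.58, 7.85 and 8.36, while the stem cell marker LGR5 was dim on all 3 arrays (4.62, 4.07 and 3.00). APCDD1, a WNT inhibitor and target, missed the mean level required but read 7.06 at day 15 after 4.22 and 3.54. The median of the 16 tested WNT genes was 0.09.

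Of 23 tested genes of MAPK output 3 rose and 3 fell net. The immediate early genes FOS (5.88, 6.27 and 8.70), EGR1 (11.94, 11.97 and 13.25) and IER2 (10.13, 10.08 and 11.15) rose late. PHLDA1 (10.35, 9.93 and 8.69), FOSL1 (11.04, 10.45 and 9.48) and DUSP4 (7.71, 6.86 and 6.57), which follow sustained ERK activity, fell steadily. The median was -0.06, and other immediate early genes, FOSB (6.25, 6.13 and 6.24) and JUN (8.23, 7.88 and 7.67), and the ERK phosphatase DUSP6 (9.84, 9.68 and 10.63) did not pass. Of the receptor tyrosine kinases FGFR3 rose steadily (5.06, 5.84 and 7.43), and ERBB3 (8.81, 9.01 and 10.13) and INSR (7.60, 7.64 and 8.86) rose late. EREG, an EGFR ligand, fell late (9.44, 9.05 and 7.56), and EGFR itself read 8.49, 7.87 and 7.67. MET (12.09, 12.35 and 11.98) and MST1R, the receptor RON (8.34, 7.74 and 8.39), ended near their day 5 level.

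Some immune and secretory genes rose in several lists, mostly late. Of 25 interferon-stimulated genes 5 rose (20.0%, against 5.53% of all genes) and 0 fell (IRF9, IFI44, IFIT1, IFIT3 and IFI6), although 11 of the 25 were lower at day 15 than at day 5, ISG15 included (8.54, 7.79 and 8.06). IFI44 (4.99, 4.76 and 6.64) and IFIT3 (4.49, 4.96 and 5.68) passed the filter only through day 15. Of 18 tested NF-kB targets 5 rose (27.8%, against 5.53% of all genes) and 2 fell (11.1%, against 7.01%). The net median was -0.03, and 10 of the 18 were lower at day 15 than at day 5. PIGR, which carries polymeric IgA across epithelium (8.81, 9.07 and 11.33), LCN2, an iron-siderophore binder (7.96, 8.28 and 10.30), and TNFAIP2 (6.17, 6.39 and 8.42) rose with IL1A and LTB. CXCL8, the neutrophil chemokine, fell (7.12, 7.17 and 5.64), as did NFKB1. In antigen presentation HLA-DMA (6.12, 6.28 and 7.92) and HLA-DRB1 rose (11.1%, against 5.53% of all genes) and PSMB10 fell (5.56%, against 7.01%), with 15 of 18 genes higher and a net median of 0.55. HLA-DRB1 was read from a probe set that can detect related genes. Goblet and secretory genes had a net median of 0.94 over only 11 tested of 25, and genes that are dim at day 5 could pass the filter through day 15. Those that rose were MUC4 (9.98, 10.45 and 12.13; a probe set that can detect related genes), MUC1 (4.71, 4.80 and 6.77), MUC5AC (8.03, 9.12 and 9.32; only 1 of 3 other bright probe sets higher), TFF1 and AGR2. MUC2, the defining goblet mucin, did not reach the level required. Of 8 tested enterocyte genes USH1C rose (7.32, 7.10 and 8.80, from a probe set that can detect related genes).

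Adhesion and matrix genes changed one by one. CLDN2 rose steadily, CLDN4 (7.89, 7.77 and 9.21) rose late and TJP3 rose after a dip, while the desmosomal PKP2 (7.43, 6.72 and 6.32) and the tricellular junction protein MARVELD2 (9.59, 9.08 and 8.55) fell steadily. CDH1, E-cadherin, read 9.88, 9.90 and 10.47. Among 19 integrin and laminin genes ITGA1, of the collagen receptor (4.60, 4.86 and 6.63), LAMA5 (6.97, 7.21 and 8.49) and LAMB2 rose. ITGA1 passed the filter only through day 15. PLAT and PLAU, the plasminogen activators, rose late (6.38, 5.84 and 8.72; 5.34, 5.11 and 6.55) together with TIMP2, and the serpin SERPINB5 fell steadily (7.70, 6.97 and 6.13). Of 10 tested mesenchymal genes FN1, fibronectin (5.60, 5.97 and 7.05), S100A4 (10.42, 10.39 and 11.83), VCAN, a matrix proteoglycan (8.92, 9.14 and 9.99), and COL1A1 rose and THBS1 fell (a net log2 change of -1.11). VIM, vimentin, was dim throughout (4.22, 4.04 and 4.52), and the median over the list, 0.22, became -0.12 when all probe sets of each gene were used. The connexin GJC1 read 8.44, 7.85 and 8.04.

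Of 12 tested genes of prostaglandin synthesis and breakdown 3 rose and 1 fell, and PTGS2 (COX-2) read 10.07, 10.19 and 10.09. PTGS1 (COX-1) rose late (7.58, 7.95 and 9.82, with 3 of 3 other probe sets higher, as the naming rule required). PTGES, the inducible prostaglandin E synthase, rose steadily (6.02, 6.57 and 7.75). AKR1C3, a prostaglandin F synthase, rose after a dip (7.35, 6.98 and 8.67), and the synthases PTGES2 (8.44, 7.98 and 7.95) and TBXAS1 (7.48, 7.13 and 7.28) did not pass. ABCC4, an exporter of prostaglandins, fell from 9.10 through 8.64 to 8.05. Of 18 p53 targets 16.7% went each way, against 5.53% and 7.01% of all genes: 3 rose (CDKN1A; GDF15 at 5.83, 5.22 and 7.36; TP53INP1) and 3 fell (TP53I3 at 8.21, 7.83 and 6.64; TIGAR at 8.31, 7.63 and 6.89; AEN).

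A straight line in culture day could be tested for each gene, with 1 residual degree of freedom; its error is the departure from the line and not a replicate error. In limma with Benjamini-Hochberg adjustment over 12198 genes, 2 genes (0.0164%) had a slope above 0 and 0 (0%) below. These were PROM2 (log2 slope 5.24 per 10 days, SE 0.40, adjusted p = 0.00401, with a day 5 value under log2 5, so that its slope rests on a dim array) and ATOH8 (3.77, SE 0.40, adjusted p = 0.0313). At an unadjusted p under 0.05 the counts were 941 higher and 1809 lower. The adjusted count depended on the setting: 532 genes passed after centring each array and 781 among genes of mean log2 at least 6, against 1 without the intensity trend and 1 with no filter.

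The slope was also compared with that of the cystic clone, over all 6 arrays and with 2 residual degrees of freedom. No gene passed in limma with Benjamini-Hochberg adjustment (0 of 12198, 0%; smallest adjusted p = 0.999), 298 had an unadjusted p under 0.05 (157 steeper upward in the spiky clone, 141 downward), and 0 passed under each of 4 alternative settings of this fit. A fit that pairs the arrays by culture day, added after the data were seen and with 1 residual degree of freedom, gave the same slope differences with other errors. Its error is the departure of the difference between the clones from a straight line, and not a replicate error. The error of the unpaired fit is likewise a departure from a line in each clone. The paired fit called 62 genes (0.508%) in limma with Benjamini-Hochberg adjustment, 48 steeper upward and 14 downward in the spiky clone. Of these, 46 had a 2-fold net change there. Genes and probe sets were chosen on the spiky arrays alone, so a gene could pass the filter through its spiky day 15 value. How far that choice shaped these counts was not tested. With no filter the paired fit called 4 genes steeper upward and 1 downward. The paired count was 0 without the intensity trend (1015 at an unadjusted p under 0.05), 5 with no filter, 81 after centring and 115 among genes of mean log2 at least 6. Whether a named course differs between the clones thus depended on the fit. SLC7A11, which fell in the spiky clone, read 9.33, 9.61 and 9.24 on the cystic arrays (slope difference -2.41, SE 0.25, adjusted p = 0.000167 in the paired limma fit, 0.999 in the unpaired one). The net change had the same sign in the cystic clone for 191 of 212 steady rises, 450 of 473 steady falls, 349 of 380 late rises and 334 of 339 late falls, given as a description. Over all tested genes the sign was shared by 9214 of 12198. Among named genes with a 2-fold net change in the spiky clone, 5 had the opposite sign in the cystic clone. Most were near level there: the net log2 change was -0.45 for ATOH8, -0.25 for FN1, -0.14 for VCAN, -0.05 for NPC2 and -0.03 for PTGES. Only that of ATOH8 was larger than 0.33, the median difference between probe sets of a gene. ATOH8 read 5.92, 5.15 and 5.47 on the cystic arrays (slope difference 4.21, SE 0.64, limma with Benjamini-Hochberg adjusted p = 0.999; paired by day SE 0.43, adjusted p = 0.000167), and PTGES 8.14, 8.04 and 8.12 (difference 1.76, SE 0.46, adjusted p = 0.999; paired by day SE 0.38, adjusted p = 0.0425). FN1 (6.90, 6.33 and 6.65) and NPC2 (11.29, 11.05 and 11.24) were the others with bright cystic arrays, and VCAN was dim on all 3 of them.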

How the data were processed

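Gene expression was measured on 6 arrays, 1 per clone and day, and the 3 arrays of the spiky clone were analysed here. The authors deposited log2 values that came from RMA according to the labels (per the submitters' processing notes). No source used here gives the RMA version, its settings or which arrays were normalised together. The deposited table holds 54675 probe sets and 0 missing values, and the spiky medians are 5.23, 5.18 and 5.29. Precision is limited by the number of arrays. Values of 2 days were compared as deposited.

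Of the probe sets 41097 had 1 gene symbol in the platform's table, 1801 several and 11777 none, and 41043 matched RefSeq (GRCh38.p14) by gene ID. The sources used here name no genome build for that table, so positions are printed for RefSeq promoters only. Each of 19775 genes was represented by the probe set of 1 symbol whose mean was highest over the spiky arrays, and 12198 with a mean of at least 5 were tested; 909 of these are of the _x_at type, which can detect related genes. Where the dimmer array lay under 5 it was set to 5 and the fold is written as "at least".

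Tests were run in limma 3.58.1 (R 4.3.3), two-sided, with intensity trend, Benjamini-Hochberg adjustment and a threshold of 0.05, and were tested on simulated data. Tables and figures were made with Python 3.11.15, pandas 2.3.3 and matplotlib 3.10.9. Named were the 8 highest and 8 lowest steady and late genes, 6 and 6 early, up to 3 and 3 transient ones, the 2 largest rises and falls of at least 2-fold per list, and a fixed set. Genes with an opposing bright probe set and uncharacterised LOC or orf symbols were left out. Other list members are named as examples, some chosen after their values were seen. Members, lists and rules were chosen with earlier results of these data known. Alternatives changed the filter, the probe set rule, the scaling, the fold, the bounds of a steady course and the intensity trend; a slope difference with the arrays paired by day was added after the data were seen. The pairing comes from the day in the labels, and with 1 array per clone and day it could not be checked from deviations within groups.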

Additional observations from a re-analysis of the deposited data

Results flagged for a closer look

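With the arrays paired by culture day, 14 named genes had a slope over time that differed between the spiky and the cystic clone (limma, Benjamini-Hochberg adjusted p from 0.000167 to 0.0484), and none of them passed in the unpaired fit, where each adjusted p was 0.999. The fit that paired the arrays without the intensity trend called 0 genes. The error of the paired fit is a departure from a straight line and not a replicate error. In log2 per 10 days, spiky minus cystic, the slope difference was 4.21 for ATOH8, 2.42 for PROM2, 2.20 for MB, 1.76 for PTGES and 1.69 for CCN2. It was 1.47 for CDKN1A, 1.46 for DDIT4, 1.40 for NPC2, 1.13 for MUC4 and 1.02 for S100A4. Downward it was -2.41 for SLC7A11, -1.48 for PHLDA1, -1.41 for EREG and -0.99 for FOSL1. PROM2 (4.09) and MB (3.99) were dim at day 5 in the spiky clone, so their differences rest partly on dim readings. The net log2 change in the cystic clone was 2.83 for PROM2, 2.52 for MB, 2.35 for DDIT4 and 1.02 for MUC4. It was -0.45 for ATOH8, -0.05 for NPC2 and -0.03 for PTGES. CCN2 fell in both clones, from 10.14 through 8.17 to 6.78 on the cystic arrays, and was level from day 10 in the spiky clone. EREG read 9.72, 9.93 and 9.26 on the cystic arrays.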

How the results depend on the processing

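The labels give no replicate numbers; the slope difference from the cystic clone was also fitted with the arrays paired by culture day (a replicate block, added after the data were seen). It called 0 genes unpaired and 62 paired, and the paired fit called 81 after centring, 5 with no filter, 115 with a mean of at least 6 and 0 without the intensity trend. No array could be left out of a difference between days. At 1.5-fold, genes higher and lower numbered 1558 and 2564 net, 273 and 937 at the early step and 1769 and 1528 at the late step; steady genes numbered 479 and 1270, early 84 and 265, late 753 and 956, overshoots 242 and 73, peaks 37 and dips 202. With no filter the early step gave 155 and 190 genes, the early pattern 35 and 64, and 49 peaks and 31 dips. With a mean of at least 6 they were 27 and 63, 13 and 23, and 1 and 8. Quantile normalization gave 68 genes lower at the early step and 7 peaks. Centring each array gave 560 genes lower at the late step, 531 late falls and 7 peaks. Narrower bounds for a steady course left 126 and 309 steady genes, with 35 and 65 early and 40 overshooting rises. The linear trend passed for 2 genes, and for 532 after centring, 781 with a mean of at least 6, 1 without the intensity trend and 1 with no filter. Over all probe sets of each gene, the net median of the mesenchymal list was -0.12, that of the fibroblast markers -0.018 and the change of TTC28 -0.16. All 121 named genes moved by less than 0.33 (log2) after centring and after quantile normalization. Centring shifts every gene alike between 2 arrays. Net changes near 0, such as those of MST1R (0.05) and PTGS2 (0.02), could thus change sign. Over all probe sets 86 of the 121 moved by less than 0.33. The causes were not tested. The arrays' number and the dim range under log2 5 limit small changes.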
